A study of Caenorhabditis elegans with 2 samples.

Results

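The genes ceh-10, ceh-23 and unc-86 encode 3 homeodomain transcription factors that act with or under TTX-3 in single neuron types of Caenorhabditis elegans. They were chosen by name, and make up 3 of the 19973 protein-coding genes on the nuclear chromosomes. For each gene, summits were collected from 5000 bp upstream of any annotated 5' end to 1000 bp past the end of the gene. This gave 9 summits in the pooled list of both replicates, 13 in the list of replicate 1 and 14 in the list of replicate 2, each list holding 30000 regions. By their deposited description these lists hold both peaks and background, as input to a later filter on reproducibility. An entry in them is therefore not by itself a called peak. The data are chromatin immunoprecipitation and sequencing (ChIP-seq) of TTX-3 carrying a C-terminal GFP-FLAG tag, recovered with an antibody against GFP. There was 1 group: whole late-embryonic hermaphrodites of strain OP68, which carries unc-119(ed3) on chromosome III and the transgene wgIs68, 4 hours after synchronization by egg bleaching, in 2 biological replicates. No group without the tagged protein was analysed here, and in whole animals the few neurons that use these genes are mixed with all other cells.

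LIM homeodomain proteins such as TTX-3 bind short sequences with a TAAT core, often together with a second homeodomain protein. In the AIY interneurons, which process temperature information, TTX-3 and CEH-10 bind DNA as a pair and switch on the genes that give the cell its identity, including their own. CEH-10 is a paired-like homeodomain protein, and ceh-23 is a homeobox gene that AIY expresses under control of ttx-3. UNC-86 is a POU homeodomain protein of the Brn3 class that acts with TTX-3 in the serotonergic NSM neurons, and with other partners in touch receptor neurons.

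The genes ceh-10, ceh-23 and unc-86 all lie on chromosome III, and ttx-3 lies on chromosome X (positions on ce11, the same assembly as WBcel235). ceh-10 (WBGene00000435) runs from 5799047 to 5801115 on the plus strand and is nested, in the opposite direction, inside polq-1, which encodes DNA polymerase theta. ceh-23 (WBGene00000446) runs from 7839592 to 7841491 on the plus strand and faces the end of ZK652.8. unc-86 (WBGene00006818) runs from 8212740 to 8216336 on the minus strand and has 2 annotated transcripts with different 5' ends. Positions along a gene are counted from its most upstream 5' end.

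The sequences around some of the summits are given first, each as 101 bases centred on the summit. They are read 5' to 3' on the strand of the gene from the RefSeq copy of WBcel235. In capitals are matches to the homeodomain cores TAATTA and TAATTG, read on both strands, or, where there is none, the longest perfect tandem repeat of at least 12 bases. The first 3 are the pooled summits of ceh-10 in order along the gene (chrIII:5795866-5795966, chrIII:5798061-5798161 and chrIII:5801383-5801483). The last 2 are intronic summits of unc-86, shown because they hold TAATTA (chrIII:8215081-8215181 from the pooled list, and chrIII:8214110-8214210 from the list of replicate 2). Not printed are the strongest pooled unc-86 summit, the unc-86 summit found in both replicates and the pooled ceh-23 summit.
ceh-10, 3131 bp upstream: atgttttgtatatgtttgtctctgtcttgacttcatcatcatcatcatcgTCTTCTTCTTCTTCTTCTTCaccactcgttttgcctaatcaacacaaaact
ceh-10, 936 bp upstream: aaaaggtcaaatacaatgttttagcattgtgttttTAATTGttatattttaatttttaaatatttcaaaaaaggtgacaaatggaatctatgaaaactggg
ceh-10, 318 bp past the gene end: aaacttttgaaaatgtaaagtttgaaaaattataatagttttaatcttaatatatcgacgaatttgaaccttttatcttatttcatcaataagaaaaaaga
unc-86, 1205 bp from the first 5' end: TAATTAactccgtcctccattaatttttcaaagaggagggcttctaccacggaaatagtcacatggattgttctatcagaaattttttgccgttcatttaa
unc-86, 2176 bp from the first 5' end: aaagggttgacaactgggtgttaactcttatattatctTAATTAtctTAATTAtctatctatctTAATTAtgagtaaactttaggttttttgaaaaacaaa

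None of the 9 pooled summits was among the 700 optimal peaks, the regions that passed the authors' filter on irreproducible discovery rate (IDR). The strongest of them, at ceh-10, had a pooled signal of 48.1, which is 66.4% of the weakest optimal signal (72.5). Signal is the strength the authors' peak caller gave a region. It has no stated unit, so it was read within a list only, and the lists carry no read counts, so depth is unknown. Of all protein-coding genes, 7.4% had an optimal summit in the same window, and of those on chromosome III, 10.4%. At least 1 pooled summit lay in the window of each member, as it did for 76.3% of all protein-coding genes and 86.4% of those on chromosome III. Its presence therefore says little about a gene. Both replicate lists also had a summit in each of the 3 windows, against 80.4% of all genes for replicate 1 and 81.9% for replicate 2.

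**Figure D1:**
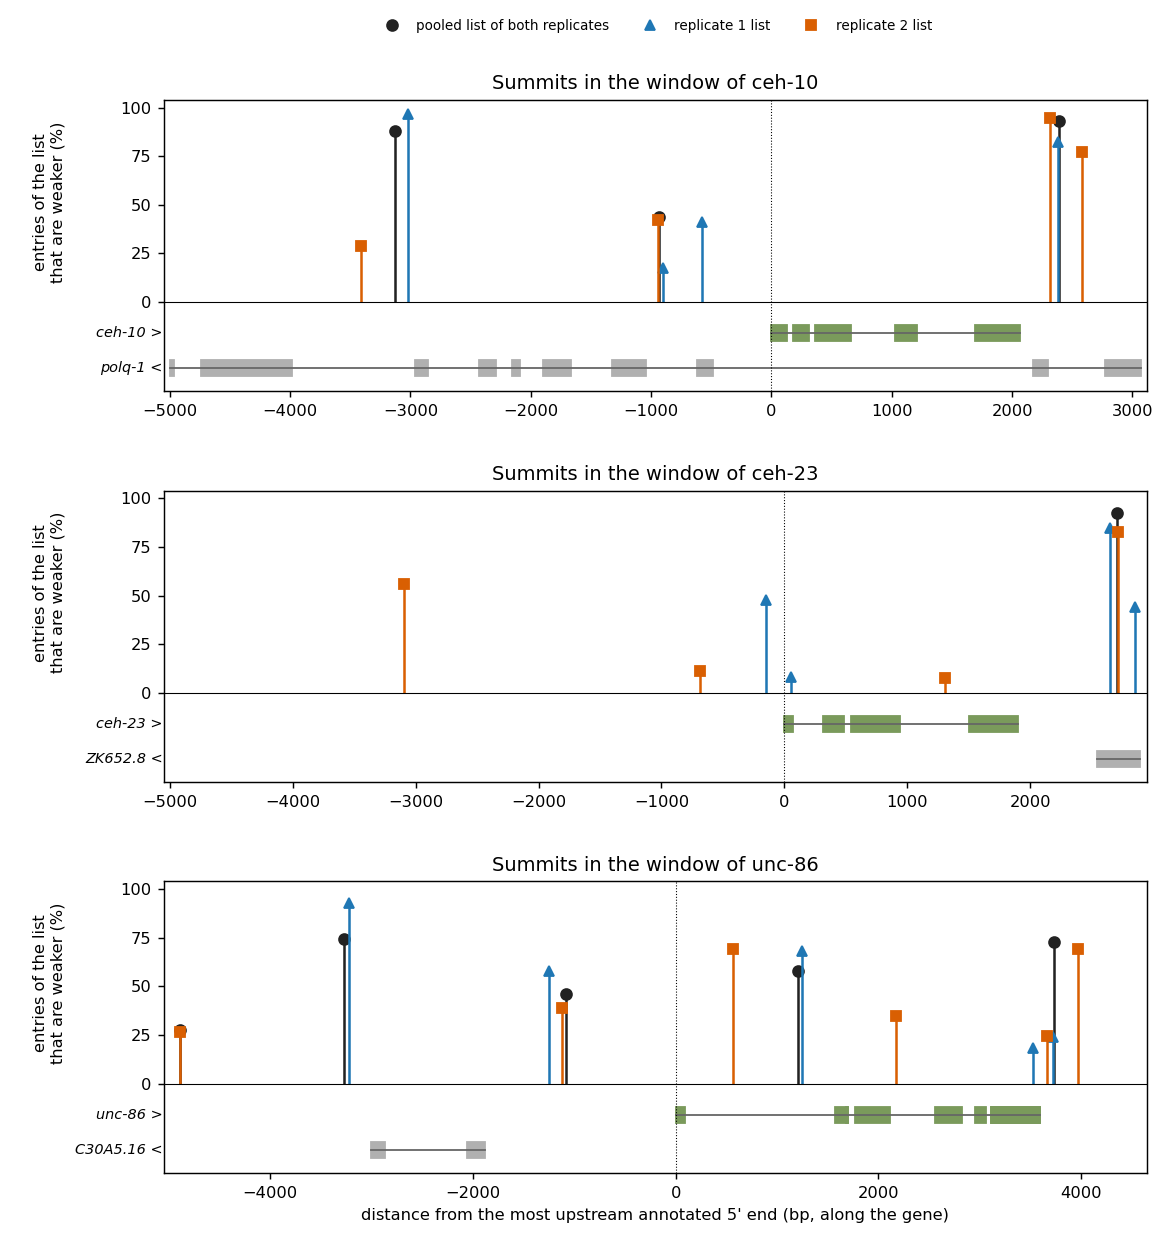
Summits of the pooled list (circles), replicate 1 (triangles) and replicate 2 (squares) in the windows of ceh-10, ceh-23 and unc-86, by distance in bp from the most upstream 5' end; height is the percentage of the list's entries that are weaker. Boxes are exons, and a < marks a neighbour on the opposite strand. The highest pooled summits of ceh-10 and ceh-23 lie past the end of the gene, and the pooled list has no summit upstream of ceh-23.

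ceh-10 had 3 pooled summits, and its strongest lay past the gene rather than at its promoter. That summit was 318 bp past the end of ceh-10, in an intron of polq-1 (region 5801208 to 5801657), and had a pooled signal of 48.1 at rank 2079. Replicate 1 had a summit 1 bp away with a signal of 21.8 at rank 5272. Replicate 2 had one 70 bp away with a signal of 30.6 at rank 1594. Both replicates therefore placed a summit there, with a higher rank in replicate 2. Its nearest 5' end of a protein-coding transcript was that of polq-1, 1727 bp away, and the windows of R12B2.3, him-10 and polq-1 also held it. The sequence had 18.8% G and C, and 2.9% of all nuclear pooled summits had as low a share. It held none of the 3 motifs searched.

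The next ceh-10 summit in strength, 3131 bp upstream in another intron of polq-1 (region 5795691 to 5796140), had a pooled signal of 41.2 at rank 3637. The nearest replicate 1 summit was 112 bp away, with a signal of 35.6 at rank 1014, which made it the highest ranked replicate 1 summit in the 3 windows. The nearest replicate 2 summit was 283 bp away, with a signal of 14.5 at rank 21344. With 100 bp as the limit for the same place, the pooled summit was found in neither replicate. These replicate summits were themselves 395 bp apart, so their ranks belong to different places. The sequence printed above holds a tandem repeat of 20 bases, and 0.49% of nuclear pooled summits had as long a repeat within 50 bp, where the median was 8 bases. Repeats were examined after the sequence had been seen, and whether the repeat bears on the signal was not tested.

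The summit 936 bp upstream (region 5797886 to 5798335) was the weakest of the 3 and the one nearest to the 5' end of ceh-10. It had a pooled signal of 25.7 at rank 16795, below the list's median signal of 26.9. Both replicates had a summit close by: replicate 1 at 33 bp with a signal of 12.4 and rank 24778, and replicate 2 at 4 bp with a signal of 15.9 and rank 17294. The position was thus shared although each list ranked it in its weaker part. A TAATTG lies 12 bp from the summit, centre to summit, and is the only homeodomain core in the ceh-10 window found within 50 bp of a pooled summit. Of the 4 ceh-10 summits in each replicate list, 2 had no partner in another list within 100 bp. One of each pair was the replicate summit nearest to the pooled one 3131 bp upstream. The others lay, in replicate 1, 576 bp upstream of ceh-10 in a coding exon of polq-1 (signal 14.5, rank 17660), and in replicate 2, 516 bp past the gene end (signal 21.4, rank 6823).

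ceh-23 had 1 pooled summit, and it lay in a neighbour. The summit was 809 bp past the end of ceh-23, in the 3' untranslated region of ZK652.8 (region 7842075 to 7842524). It had a pooled signal of 46.8 at rank 2285, with 22.7 at rank 4559 in replicate 1 (56 bp away) and 23 at rank 5160 in replicate 2 (11 bp away). The replicates had similar ranks at this place. The nearest 5' end of a protein-coding transcript was that of ZK652.8, at 1336 bp. Upstream of ceh-23 and within it, only single replicates had summits. Replicate 1 had one 147 bp upstream of the 5' end with a signal of 15.2 (rank 15714) and one 58 bp inside the gene, in a coding exon, with 11.7 (rank 27533). Replicate 2 had others 3091 bp upstream with 17.5 (rank 13252), 685 bp upstream with 13 (rank 26702) and in an intron with 12.8 (rank 27634). Past the gene end, replicate 1 had a second summit at 953 bp with 14.8 (rank 16776). No summit upstream of ceh-23 or within it was shared by the replicates within 100 bp.

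unc-86 had 5 pooled summits, the most of the 3 genes, and all were of middling or low rank. Of all protein-coding genes, 18.5% had as many or more, against 42.5% for the count of ceh-10 and 76.3% for that of ceh-23. The unc-86 window was also the longest, at 9597 bp against 8069 bp and 7900 bp. The highest, 3277 bp upstream of the first 5' end in intergenic sequence (region 8219388 to 8219837), had a pooled signal of 33.6 at rank 7673. Replicate 1 had a summit 50 bp away with 27.8 at rank 2163, and replicate 2 had none within 100 bp. The summit lay closer to the 5' end of the neighbour C30A5.16, at 1394 bp, than to that of unc-86. Next came a summit 134 bp past the gene end (region 8212381 to 8212830), with a pooled signal of 33 at rank 8128. It was the only unc-86 summit found in both replicates, at rank 22800 with a signal of 12.9 in replicate 1 and at rank 22611 with a signal of 14.2 in replicate 2. These 2 signals differed by less than 1 unit in the pooled list, but the replicates did not share the first and ranked the second low.

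The unc-86 summit in the gene lay in the first intron of the longer transcript, 478 bp upstream of the 5' end of the shorter one (region 8214906 to 8215355). It had a pooled signal of 28.8 at rank 12528. Replicate 1 had a summit 44 bp away with 18.3 at rank 9468, and the nearest in replicate 2 was 639 bp away. A TAATTA stands at the edge of its sequence, 48 bp from the summit. The remaining summits lay 1079 bp and 4886 bp upstream, with pooled signals of 26.2 (rank 16110) and 23.1 (rank 21652), and were found in replicate 2 at 39 bp (signal 15.5) and at 6 bp (signal 14.3). Replicate 1 had none within 100 bp of either, and its nearest to the first of them was 175 bp away. The summit 1079 bp upstream was nearer to the 5' end of C30A5.16, at 804 bp, and held a tandem repeat of 21 bases, a length reached at 0.38% of nuclear pooled summits. The strongest unc-86 summit of replicate 2 (signal 19.7, rank 9155) lay 566 bp inside the gene in the same intron, with no pooled summit within 100 bp. Other replicate 2 summits with no pooled summit within 100 bp lay 370 bp past the gene end (signal 19.7, rank 9212) and in the intron printed above (signal 15.1, rank 19612). Those of replicate 1 lay in the 3' untranslated region of unc-86 (signal 12.5, rank 24423) and 1254 bp upstream (signal 16.6, rank 12619).

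Across the 3 genes, 5 of the 9 pooled summits lay upstream of the first 5' end, 1 inside the gene and 3 past its end. By annotation, 5 lay in the body of a gene of any kind and 4 were intergenic. The nearest protein-coding 5' end belonged to the member itself for 4 of 9, and the same window rule assigned each of the 9 to at least 1 other protein-coding gene as well. Each of the 9 regions was 450 bp wide, the width of 99.6% of all pooled entries. The nearest tRNA, snoRNA or snRNA gene was between 6641 bp and 135289 bp away. Per kilobase, the windows held 0.372 pooled summits at ceh-10, 0.127 at ceh-23 and 0.521 at unc-86. Together they held 0.352 summits per kb, against 0.394 over chromosome III and 0.299 over the nuclear genome.

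Support by both replicates, meaning a summit of each within 100 bp, was found for 4 of the 9 pooled summits, against 22.4% of all nuclear pooled entries. Of the others, 2 were found in replicate 1 alone, 2 in replicate 2 alone and 1 in neither. Because the pooled list was made from both replicates, a replicate summit near a pooled one is not an independent check. Support depends on rank, and 3 of the 9 were among the first 5000 entries, of which 67.5% had support in both replicates. The members had 2 of 3 there. From rank 5001 to 10000 they had 1 of 2, against 36.8% of all entries, and from rank 15001 to 20000 they had 1 of 2, against 7.86%. That was the summit 936 bp upstream of ceh-10. The other summits, 1 between rank 10001 and 15000 and 1 between rank 20001 and 25000, lacked it. Each of the 3 genes had at least 1 summit with support in both replicates, as did 40.4% of all protein-coding genes. Among protein-coding genes of chromosome III, where all 3 members lie, the share was 54.2%. Within 50 bp only the summit 936 bp upstream of ceh-10 kept it, so ceh-23 and unc-86 then had 0. Looked at from the replicates, 4 of the 13 member summits of replicate 1 had a partner in replicate 2 (30.8%, against 22.3% over the whole list), and 4 of the 14 of replicate 2 had one in replicate 1 (28.6%, against 22.3%). These counts are too small to set the members apart from other entries, and no test was made over genes that were chosen by name.

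**Figure D2:**
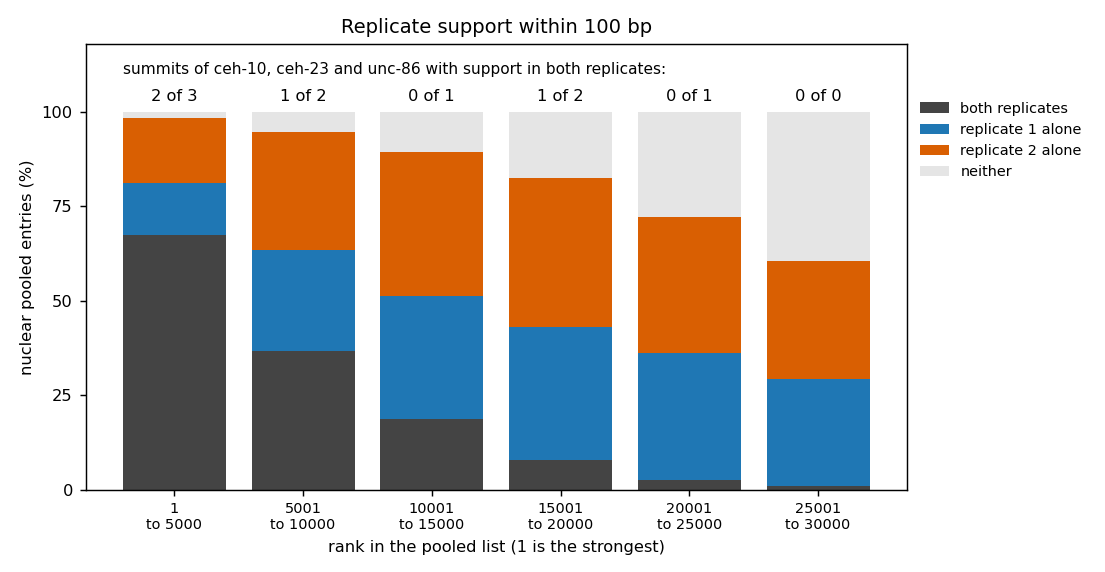
Share in percent of nuclear pooled entries with a replicate summit within 100 bp, in bins of 5000 ranks, split into both replicates, replicate 1 alone, replicate 2 alone and neither. The numbers above the bars count the summits of ceh-10, ceh-23 and unc-86 with support in both replicates, 4 of 9 in all; the share over all entries drops with rank, to 1.06% in the last bin.

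The strongest pooled signals of ceh-10 (48.1) and ceh-23 (46.8) were close to each other and above that of unc-86 (33.6). By the strongest summit in each replicate list, ceh-10 stood over ceh-23 (35.6 and 22.7 in replicate 1, 30.6 and 23 in replicate 2). For ceh-10, however, the replicate 1 value came from a different place than the strongest pooled summit. At the places of the strongest pooled summits, replicate 1 had 21.8 for ceh-10 and 22.7 for ceh-23, so the order was not shared there. For unc-86 the strongest replicate signals were 27.8 in replicate 1 and 19.7 in replicate 2, above ceh-23 in the first and below it in the second, so the order of these 2 genes was not shared. Of all protein-coding genes, 18% had as strong a pooled summit as ceh-10, 19.2% as ceh-23 and 42.2% as unc-86. The median over genes with a summit was 35.3, and 38.6 over those on chromosome III. In the list of replicate 1 the shares were 9.82% for ceh-10, 31.2% for ceh-23 and 18.2% for unc-86, and in that of replicate 2 they were 14.4%, 33.3% and 47.7%. The share for unc-86 thus differed most between the replicates.

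**Figure D3:**
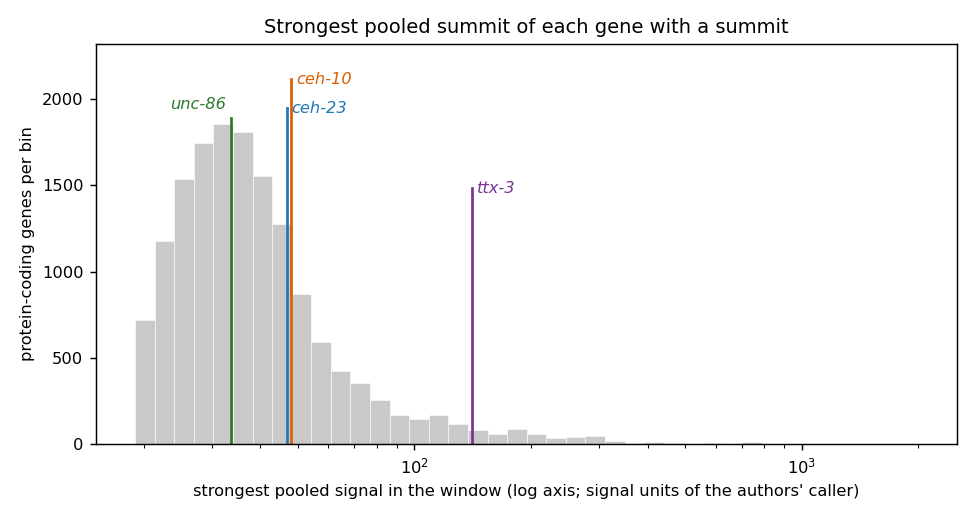
Number of protein-coding genes by the strongest pooled signal in their window (log axis), with lines at ceh-10 (48.1), ceh-23 (46.8), unc-86 (33.6) and ttx-3 (141). The lines of unc-86, ceh-23 and ceh-10 fall within the main body of genes, and that of ttx-3 falls in the upper tail.

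The gene of the tagged protein, ttx-3, stood higher. Its strongest summit, in an intron, had a pooled signal of 141 at rank 207, with 78.5 in replicate 1 and 69.5 in replicate 2. That is 2.93 times the strongest pooled signal of ceh-10, 3.01 times that of ceh-23 and 4.19 times that of unc-86, and 2.21% of all genes had as strong a summit. Reads from the transgene and from the endogenous ttx-3 locus cannot be told apart in these lists, and copy number was not tested. ttx-3 is 1 of 8 regulators listed for work before or beside the members: ref-2 (a Zic-type zinc finger gene), hlh-16 and hlh-2 (basic helix-loop-helix genes), sys-1 (a beta-catenin) and pop-1 (the TCF factor with which SYS-1 acts) in the AIY lineage, and mec-3 (a LIM homeobox gene) and cfi-1 (an ARID gene) beside UNC-86. All 8 had a pooled summit, as did 76.3% of all protein-coding genes. Of the 8, 4 had one with support in both replicates, against 40.4% of all genes. An optimal summit was found for 2 of the 8, of which ttx-3 itself is 1, against 7.4% of all genes. The median strongest signal of the 8 was 38.4, against 35.3 over all genes with a summit. With so few genes these shares do not set the regulators apart. The second gene with an optimal summit was sys-1, which had 2. The strongest sys-1 summit (signal 220, rank 85) was intergenic, past the gene end and 4883 bp from the first 5' end. It also fell in the windows of T23D8.3 and eif-3.C.

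Of the 99 other homeobox genes, 81.8% had a pooled summit in the window, 36.4% had one with support in both replicates and 4.04% had an optimal summit, with a median strongest signal of 33.5. The homeobox genes most like each member were taken as those with the smallest distance in log2 of the strongest signal over the 2 replicate lists, among 79 candidates with a summit in both. For ceh-10 these were ceh-43 (distance 0.16), ceh-16 (0.19) and ceh-57 (0.24). For ceh-23 they were lim-7 (0.06), ceh-34 (0.09) and ceh-91 (0.13), and for unc-86 they were ceh-86 (0.18), ceh-89 (0.22) and ceh-22 (0.23). With 2 replicates this likeness says only that the strongest signals in the replicate lists are of similar size. In the pooled list the same genes, in the same order, were further apart for some members. Their strongest signals there were 59.9, 43 and 58.9 against 48.1 for ceh-10. For ceh-23 they were 32.7, 31.5 and 44.9 against 46.8, and for unc-86 they were 45.6, 47.9 and 38.7 against 33.6.

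Both homeodomain cores occurred in each of the 3 windows. TAATTA was found 7 times in the ceh-10 window, 5 times in that of ceh-23 and 9 times in that of unc-86, or 0.868, 0.633 and 0.938 per kb against 0.529 per kb over the nuclear genome. TAATTG was found 11, 7 and 11 times, or 1.36, 0.886 and 1.15 per kb against 0.897. The POU octamer ATGCAAAT occurred 2, 1 and 0 times, or 0.248, 0.127 and 0 per kb against 0.0914. Within 50 bp of a pooled summit, TAATTA was found at 1 of 9 member summits (6.73% of all nuclear pooled summits had it), TAATTG at 1 of 9 (8.77%) and ATGCAAAT at 0 of 9 (0.884%). The median share of G and C at the member summits was 35.6%, with a range of 18.8% to 54.5%. Over all nuclear pooled summits the median was 32.7%, and over nuclear optimal summits it was 48.5%. A match is a description of letters, and does not show that TTX-3 contacts them.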

How the data were processed

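Per the deposited file descriptions, the authors made each replicate's list from its ce11 alignments and a control alignment file, the pooled list from both replicates and the control, and the optimal list from these 3 lists. For the aligner, the caller and the IDR cutoff, names and settings were not given in the sources used here. Deposited lists carry no read counts, so depth is unknown. The value used is the signal of each region, deposited by the authors with no stated scale. The ce10 lists and the control were not used here. No list entry ran past the end of a chromosome (0 in all).

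Summits were placed on the Ensembl 115 annotation of WBcel235. Entries were ranked by signal within each list. A replicate summit within 100 bp counted as the same place. Windows, matching and support were tested on simulated data. Sequence windows extended 50 bp to each side, and tandem repeats had units of up to 6 bases. Alternatives were narrower windows, the stronger 15000 pooled entries, each replicate alone, and other matching distances. No test between groups was possible with 1 group, and none was made over the members. The genes named were the members, the genes at their summits, the regulators list and the 3 most alike homeobox genes per member. The optimal summits of sys-1, and genes whose windows share a summit with a named gene, were added after the values were seen. The members and lists were chosen with earlier results of these data known. Computations used Python 3.11.15, numpy 2.4.6 and pandas 2.3.3, and figures matplotlib 3.10.9.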

Additional observations from a re-analysis of the deposited data

How the results depend on the processing

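With windows from 2000 bp upstream to the gene end the members had 3 pooled summits instead of 9, and from 1000 bp upstream to 300 bp downstream of any 5' end they had 2, while the share of all protein-coding genes with a summit became 59.9% and 39.9%. ceh-23 then had 0 summits, so it has no strongest summit under these windows. These windows are shorter, and they leave out the 3 member summits that lie past a gene end. They also leave out those 3131 bp upstream of ceh-10 and 3277 bp and 4886 bp upstream of unc-86. The narrower of these windows drops the one 1079 bp upstream of unc-86 as well. Whether the counts fell by more than the shorter length would give was not tested. With a single replicate's list and the main windows the members had 13 to 14 summits. The highest rank of ceh-10 was 1014 to 1594 in the replicate lists, 16795 with 2000 bp upstream to the gene end, and 3637 without summits past the gene end, a setting chosen after seeing the data. That of ceh-23 was 4559 to 5160 in the replicate lists, and that of unc-86 was 2163 to 9155, and 12528 with 2000 bp upstream to the gene end. Among the stronger 15000 pooled entries the members had 6 summits, of which 3 were at unc-86 (5 in the whole list). The number of member summits found in both replicates was 1 within 50 bp (13.4% of all nuclear pooled entries), 5 within 250 bp (39.4%) and 6 with any overlap of the regions (48.2%). No paired analysis was possible because there was 1 group. Regions of a fixed width, unknown depth and 2 replicates limit how closely a summit can be placed.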

Other observations

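A summit of replicate 2 alone, at rank 19612 with a signal of 15.1, lay in another intron of unc-86 than the pooled summit, 493 bp inside the shorter transcript. Its sequence, printed above, holds TAATTA 3 times. The nearest replicate 1 summit was 927 bp away and the nearest pooled summit 971 bp away. Among the replicate 2 summits in the 3 windows, 2 of 14 held TAATTA, against 6.16% over that list. Among those of replicate 1, 0 of 13 held it, against 6.9%. TAATTG was found at 2 of 13 member summits in replicate 1, against 9.34% over that list, and at 2 of 14 in replicate 2, against 8.37%. These matches were looked at after the sequences had been seen.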
